A study of Mus musculus with 8 samples.

Results

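Iron handling in the regenerating mouse liver was followed through 10 genes, chosen by name from the 19055 gene rows of the deposited table. They comprise hepcidin (Hamp), its sensors and inducer (Hfe, Tfr2 and Bmp6), transferrin and its receptor (Trf and Tfrc), the exporter ferroportin with the ferroxidase ceruloplasmin (Slc40a1 and Cp) and the ferritin chains (Fth1 and Ftl1). All 10 passed the filter on low values, a level of at least 10 normalized reads in at least 3 libraries. The libraries came from mouse liver 48 hours after surgical removal of most of the liver mass. The comparison set 3 libraries of genotype URI(+/+)Hep, from wild-type littermates, against 5 libraries of genotype URI(+/D)Hep. Mice of both groups were 8 to 9 weeks old at surgery and had received tamoxifen for 1 week. In the URI(+/D)Hep mice, a tamoxifen-inducible Cre under albumin regulatory sequences deletes Uri1 in hepatocytes, so other liver cells are not its target, and the notation keeps a + allele beside the D allele. The labels do not say whether each library is a separate animal, so p-values measure the spread between these libraries. Below, n and the word liver count libraries and not animals.

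Hepcidin is a peptide hormone made by hepatocytes. It binds ferroportin, the known cellular iron exporter, and causes its degradation, which lowers the release of iron into plasma. Its transcription is driven by BMP ligands, chiefly BMP6 from liver sinusoidal endothelium, through SMAD proteins, and in inflammation by interleukin-6 through STAT3. Inside cells, the iron regulatory proteins IRP1 and IRP2 bind hairpins called iron-responsive elements. Bound at the 5′ end of a messenger RNA they block its translation, and bound in the 3′ untranslated region of the transferrin receptor message they protect it from decay.

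The BMP and STAT3 inputs meet in the proximal Hamp promoter. The stretch is shown because the Hamp values are set below against genes of the BMP input. The STAT3 input was not compared with the Hamp values. The paralogue Hamp2 is shown because the 2 genes differ in the BMP element. Capitals mark GGCGCC, the core of a BMP-responsive element, or the aligned bases of Hamp2, and TTCTTGGAA, which has the form of a STAT site. The lines run 5′ to 3′ from 150 to 31 bases before the annotated start, on the minus strand of chromosome 7 in GRCm38.p6 (Hamp at chr7:30944060-30944179, Hamp2 at chr7:30924212-30924331), and were read from RefSeq windows.

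Hamp: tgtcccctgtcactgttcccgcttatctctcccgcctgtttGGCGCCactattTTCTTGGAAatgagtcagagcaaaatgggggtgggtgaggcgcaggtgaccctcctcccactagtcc

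Hamp2: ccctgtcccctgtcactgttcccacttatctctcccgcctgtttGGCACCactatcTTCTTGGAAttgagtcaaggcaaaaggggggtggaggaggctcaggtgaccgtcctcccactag

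GGCGCC lay at -109 to -104 of Hamp, counted from the start site. At the aligned place, Hamp2 carried the substitution G4A, counted from 1 at the 5′ end of the 6 letters, while TTCTTGGAA was the same in both. Across the aligned window, 276 of 297 bases (92.9%) were identical. Of 32851 RefSeq promoter windows of the same length searched on both strands, 3898 (11.9%) held GGCGCC and 137 (0.417%) held TTCTTGGAA, while 2726 (8.3%) held the looser form TTCNNNGAA, which includes TTCTTGGAA. Windows were found for 8 of the 10 genes, and GGCGCC also occurred in 1 window of Tfrc. A match of letters is a description and not evidence of binding.

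Iron-responsive elements link 4 of the 10 genes to the iron regulatory proteins, and their sequences show a shared loop at different ends of the messages. They were searched as C, 5 bases, the loop CAGTG with 1 further base, and 5 bases that pair with the first 5, G-T pairs allowed. A hairpin that departs from this pattern would be missed, so the list may be incomplete. The DNA letters are given 5′ to 3′ on the strand of the gene, with the loop in capitals, from GENCODE transcripts on GRCm38.

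Fth1, 5′ untranslated region, chr19:9982738-9982754, plus strand: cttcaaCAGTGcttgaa

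Ftl1, 5′ untranslated region, chr7:45459785-45459801, minus strand: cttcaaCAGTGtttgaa

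Slc40a1, 5′ untranslated region, chr1:45925471-45925487, minus strand: cagctaCAGTGttagct

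Tfrc, 3′ untranslated region, chr16:32631225-32631241, plus strand: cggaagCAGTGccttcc

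Tfrc, 3′ untranslated region, chr16:32631604-32631620, plus strand: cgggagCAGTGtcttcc

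Tfrc, 3′ untranslated region, chr16:32631669-32631685, plus strand: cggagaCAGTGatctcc

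Tfrc, 3′ untranslated region, chr16:32631716-32631732, plus strand: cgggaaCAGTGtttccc

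Such a match occurred in the 5′ untranslated region of 28 of 20544 genes (0.136%), among them 3 of the 10 studied here, and in the 3′ untranslated region of 127 of 20920 genes (0.607%), of which Tfrc was the only member. An iron-responsive element at the 5′ end acts on translation, which these RNA counts do not measure.

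Libraries held 3838674 to 4800694 reads, and some stood apart in ways the genotype labels do not explain. Xist, made from the inactive X chromosome, gave 9.59 and 2.95 normalized reads in controls 1 and 2 but 1217 to 2357 in the other 6 libraries. The sum of 4 Y-linked genes was 1558 and 1312 in controls 1 and 2, 569 in control 3, 3.54 in URI(+/D)Hep 1 and 786 to 1002 in URI(+/D)Hep 2 to 5. Control 3 and URI(+/D)Hep 2 to 5 therefore held both kinds of transcript. Both at such levels are not the pattern of 1 unmixed male or female, so these libraries cannot be taken as single animals. How they arose was not tested. Mki67, a marker of cycling cells, was 24.0 in control 1 and 49.5 in URI(+/D)Hep 5 against 268 to 586 in the rest. Uri1 reads did not show the deletion (310.0 to 468 in controls, 328 to 437 in URI(+/D)Hep). A tag at the 3′ end may lie outside the deleted part, which was not tested. The labels give the cell type as epithelial. All 8 hepatocyte markers were detected, with sums of 27354 to 32156 in controls and 27516 to 29242 in URI(+/D)Hep, as were all 10 Kupffer cell and all 11 sinusoidal endothelial markers. In such tissue libraries, fewer cells of a type and less RNA per cell cannot be told apart.

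None of the 10 genes passed limma's test at an adjusted p under 0.05. Across all 13704 genes tested, 2 did (0.0146%). Before adjustment, limma's p was under 0.05 for 4 of the 10, and for 17.7% of all genes tested. Bmp6 and Slc40a1 were the higher 2 in URI(+/D)Hep, and Trf and Cp the lower 2. Trf alone had every URI(+/D)Hep library below every control, which held for 7.3% of all genes, and 0 of the 10 had every URI(+/D)Hep library above every control, against 6.13% of all genes. The median log2 fold change, URI(+/D)Hep minus control, was -0.13 over the 10 genes, 3 of them positive, and -0.0019 over all genes tested. DESeq2 on the recovered reads called 1 of the 9 genes to which it gave an adjusted p, which was Trf, and 6.67% of the 9171 genes it adjusted.

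**Figure D1:**
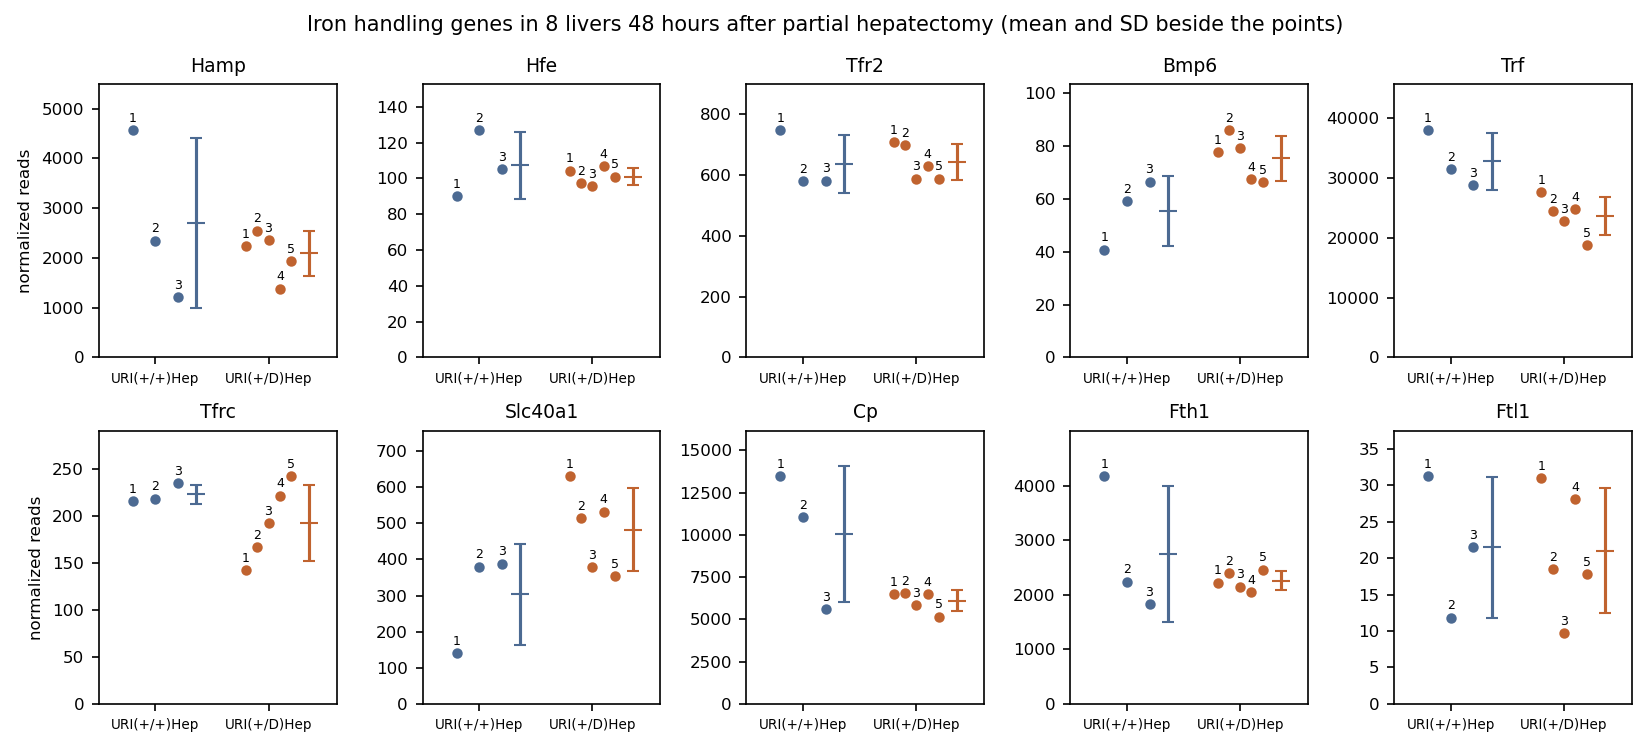
Each panel plots 1 gene in normalized reads (vertical axis, from 0) for controls 1 to 3 (blue) and URI(+/D)Hep 1 to 5 (orange), with mean and SD beside the points and the replicate number above each. Control 1 lies at the top or the bottom of 9 of the 10 panels, and Trf is the panel in which the groups do not overlap.

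Control 1 was the highest of the 8 libraries for 6 of the 10 genes (Hamp, Trf, Tfr2, Fth1, Ftl1 and Cp) and the lowest for 3 (Slc40a1, Hfe and Bmp6). It was at one end for 52.4% of all genes tested. The coefficient of variation was larger in the controls than in URI(+/D)Hep for 9 of the 10 genes, all but Tfrc, and for 63.1% of all genes tested. These counts were made after the values had been seen, and the plot of the 10 genes by library shows the pattern. Together the 10 genes took 0.890 to 1.33% of a control library's reads and 0.698 to 0.947% of a URI(+/D)Hep library's reads.

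Hepcidin varied more among the controls than between the genotypes. Hamp had a level of 4569, 2342 and 1212 normalized reads in the 3 controls, in the order 1 to 3, and of 2235, 2544, 2360, 1382 and 1929 in URI(+/D)Hep 1 to 5. All 5 URI(+/D)Hep livers lay inside the range of the controls. The means were 2708 ± 1708 (SD, n = 3) and 2090 ± 455 (SD, n = 5), with a coefficient of variation of 63.1% in controls and 21.8% in URI(+/D)Hep. The log2 fold change on the log2(value + 1) scale was -0.20 (SE 0.38, 95% interval -1.05 to 0.65, limma adjusted p = 0.819). A two-sided exact permutation test gave p = 0.768, and the 56 splits of 8 libraries into 3 and 5 allow a p as small as 0.0179. Its sign turned without control 1, to 0.28, and was -0.68 without control 3. Between 1130 and 3810 reads lay behind each value, so counting error was small beside this spread.

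Hamp2, the paralogue with G4A in the BMP element shown above, was near the limit of detection. It held 4 to 29 reads per library, with 6.0, 3.9 and 7.5 normalized reads in the controls and 14.1, 9.3, 6.8, 12.2 and 28.7 in URI(+/D)Hep, where 3 reads correspond to 2.65 to 3.60. The groups overlapped, and limma gave an adjusted p of 0.279. Whether reads of the 2 genes can be assigned to the wrong copy was not tested, so the low Hamp2 values are uncertain.

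The HFE protein and transferrin receptor 2, which form part of the hepatocyte's sensing of iron-loaded transferrin, gave fold changes near 0. Hfe measured 89.9, 127 and 105 normalized reads in the controls and 104, 97.2, 95.7, 107 and 101 in URI(+/D)Hep. The URI(+/D)Hep values lay within the control range. The log2 fold change was -0.07 (SE 0.14, 95% interval -0.39 to 0.24, limma adjusted p = 0.818), and 0.05 without control 2. Tfr2 measured 748, 579.95 and 581 in the controls against 709, 698, 589, 629 and 588 in URI(+/D)Hep. Means of 637 ± 96.8 and 643 ± 58.1 gave a difference of 0.02 on the log2 scale (SE 0.12, 95% interval -0.26 to 0.30, limma adjusted p = 0.950). The sign turned without any 1 of 4 libraries, with -0.04 without control 2 or control 3, -0.02 without URI(+/D)Hep 1 and -0.01 without URI(+/D)Hep 2. These intervals, taken before adjustment over all genes, include differences of either sign in both genes.

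Bmp6, the endothelial ligand that sets hepcidin to body iron, had a higher mean in URI(+/D)Hep without passing the test. It measured 40.8, 59.1 and 66.5 normalized reads in the controls and 77.8, 86.1, 79.3, 67.4 and 66.3 in URI(+/D)Hep. URI(+/D)Hep 5 lay just below control 3 and the other 4 lay above all controls. The means were 55.5 ± 13.2 and 75.4 ± 8.40. The log2 fold change was 0.46 (SE 0.19, 95% interval 0.03 to 0.89, limma adjusted p = 0.257), and 0.26 without control 1. It was 0.34 with the share of Y-linked reads as a covariate and 0.30 in the 6 libraries with Mki67 above 200. In the 5 libraries that held both Xist and Y-linked reads it was 0.16. The reads behind the value of each library numbered 34 to 93. Markers of sinusoidal endothelium had higher sums in every URI(+/D)Hep liver, with a summed level of 2413, 3085 and 2969 in the controls and 3091 to 3396 in URI(+/D)Hep. Of these 11 markers, 10 had a positive fold change, with a median of 0.30, and their part in the Bmp6 values was not tested.

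Genes known to be induced by BMP signalling did not follow Bmp6 as a group. Of 7 listed, 3 had a positive and 4 a negative log2 fold change (median -0.05), and 0 passed limma's adjusted threshold. The inhibitory SMADs, Smad6 and Smad7, which restrain the same pathway, were higher in all 5 URI(+/D)Hep livers than in any control. Such separation held for 6.13% of all genes tested. Smad7 measured 154, 144 and 103 normalized reads in the controls and 218, 207, 179, 165 and 214 in URI(+/D)Hep (log2 fold change 0.57, limma adjusted p = 0.146). Smad6 measured 94.7, 100.4 and 111 against 143, 139, 122, 121 and 155 (log2 fold change 0.41, limma adjusted p = 0.173). The Id genes, which encode inhibitors of DNA binding, ordered the libraries differently.

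Id1, a standard readout of BMP activity in liver, ran beside Hamp in the single libraries. It measured 620.0, 287 and 231 normalized reads in the controls and 271, 312, 269.7, 165 and 284 in URI(+/D)Hep. Control 1 was highest for both genes, and control 3 and URI(+/D)Hep 4 held the lowest 2 values of both. The ratio of Hamp to Id1 in normalized reads lay between 5.26 and 8.75 in the 8 libraries, whereas Hamp alone spanned a 3.77-fold range. This ratio was formed after the values had been seen. Id2, with 3293, 2199 and 1548 in the controls and 2288, 2494, 2127, 1559 and 2177 in URI(+/D)Hep, had the same order at its ends. The log2 fold changes were -0.44 for Id1 (limma adjusted p = 0.507), or -0.014 without control 1, and -0.09 for Id2 (limma adjusted p = 0.877).

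**Figure D2:**
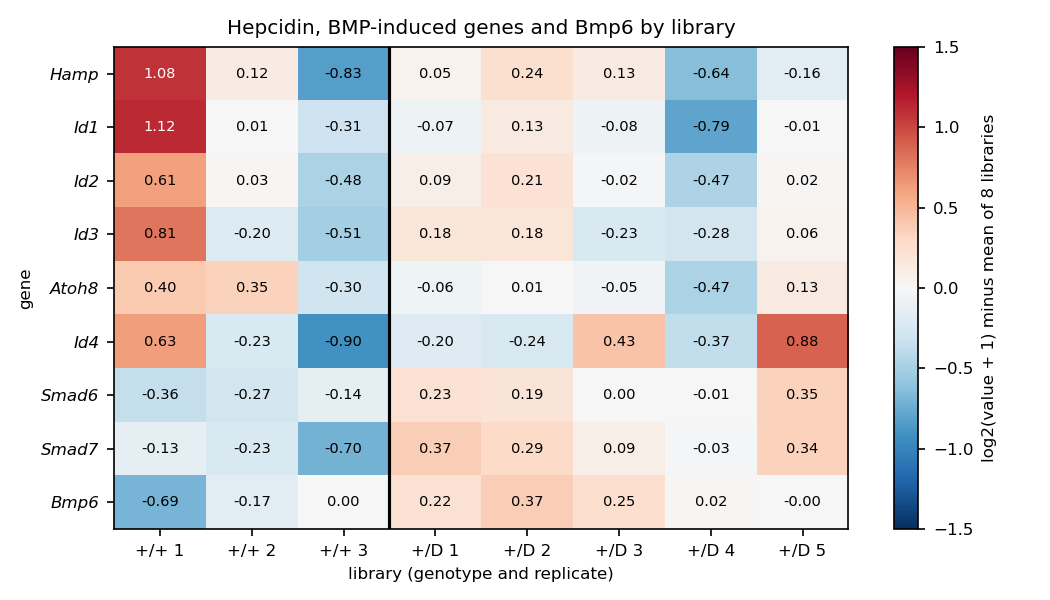
Colour and number give log2(value + 1) minus the mean of the 8 libraries for each gene (rows) in each library (columns, controls left of the line). Hamp, Id1, Id2 and Id3 are highest in control 1, at 1.08 for Hamp and 1.12 for Id1, while Smad6, Smad7 and Bmp6 are below their means there.

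The genes whose profile over the 8 libraries was most like that of Hamp were sought among 9614 tested genes that averaged at least 50 normalized reads. Pearson's r of log2(value + 1) was highest for Tmem141 (0.98), Slc6a9 (0.98), Id2 (0.98), Atp5d (0.98) and Rspo3 (0.97). Spearman's rho for these 5 lay between 0.83 and 0.93. Without controls 1 and 3, the libraries with the most extreme Hamp levels, r lay between 0.89 and 0.97. Slc6a9 encodes a glycine transporter and Rspo3 a secreted activator of Wnt signalling, and 55 genes in all reached an r above 0.9. The r values describe genes picked for their likeness over the same libraries, and so carry no test.

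In the wider list for BMP and SMAD control of hepcidin, 16 genes were tested, of which 10 had a positive fold change (median 0.09) and 0 passed limma's adjusted threshold. Acvr1, a type I BMP receptor, measured 397 ± 77.6 normalized reads in controls and 512 ± 38.8 in URI(+/D)Hep (log2 fold change 0.38, limma adjusted p = 0.2003). Fgl1, a secreted protein that binds BMP6 and lowers hepcidin, measured 13622 ± 255 and 10589 ± 1823 (log2 fold change -0.38, limma adjusted p = 0.246). The groups did not overlap for either gene, though for Acvr1 only narrowly (477.4 in control 3 and 478.7 in URI(+/D)Hep 5). Smad1, a transducer of BMP signals, had 491 ± 100.1 and 391 ± 25.2 (log2 fold change -0.31, limma adjusted p = 0.272) with overlapping groups. Without control 1, Acvr1 stood at 0.24 and Smad1 at -0.16, and in the 5 libraries that held both Xist and Y-linked reads at 0.079 and -0.0024. Groups also did not overlap for Smad4, the common partner SMAD, which was higher in URI(+/D)Hep, or for Smad5, which was lower. For Smad5 the margin was again narrow (555.3 in control 2 and 553.3 in URI(+/D)Hep 1). In all, 2 of the 16 genes were higher and 2 lower without overlap, beside 6.13% and 7.3% of all genes.

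Transferrin, the plasma carrier that delivers iron to cells, was the member with the clearest separation. Trf reached 37986, 31452 and 28811 normalized reads in the 3 controls, in the order 1 to 3, and 27551, 24434, 22709, 24714 and 18712 in URI(+/D)Hep 1 to 5. Every URI(+/D)Hep liver lay below every control, although control 3 and URI(+/D)Hep 1 were close. The means were 32750 ± 4723 and 23624 ± 3249, and the log2 fold change was -0.47 (SE 0.17, 95% interval -0.85 to -0.10, limma adjusted p = 0.198), or -0.31 with quantile normalization. DESeq2 called it on all 8 libraries (adjusted p = 0.0459) but not without URI(+/D)Hep 5 (DESeq2 adjusted p = 0.102), and edgeR's quasi-likelihood test did not call it (adjusted p = 0.170). Trf took 0.660 to 0.825% of the reads of a control library and 0.441 to 0.649% of the reads of a URI(+/D)Hep library.

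The value for Trf was -0.36 in the 5 libraries that held Y-linked reads as well as Xist, among which control 3 is the only control, and -0.28 in the 6 libraries with Mki67 above 200. The hepatocyte marker sums overlapped between the groups. All 12 acute phase genes listed had a negative fold change (median -0.48). The groups did not overlap for 4 of them, as for 7.3% of all genes, and the sums ran from 106882 to 187301 in the controls and 85232 to 118616 in URI(+/D)Hep. Their part in the Trf values was not tested.

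The transferrin receptor, through which cells take up iron-loaded transferrin, was even among the controls and spread in URI(+/D)Hep. Tfrc measured 216, 219 and 235 normalized reads in the controls and 142, 167, 192, 222 and 242 in URI(+/D)Hep 1 to 5. URI(+/D)Hep 1, 2 and 3 lay below every control and URI(+/D)Hep 5 above every control. The coefficient of variation was 4.62% in the controls and 20.9% in URI(+/D)Hep. The log2 fold change was -0.23 (SE 0.18, 95% interval -0.63 to 0.16, limma adjusted p = 0.520), and -0.13 without URI(+/D)Hep 1.

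By the same measure as for Hamp, the genes most like Tfrc were Vps33a (r = 0.95), Hspa5 (0.90), Thoc6 (0.90), Tmem39a (0.89) and Nos1ap (0.89), with Spearman's rho between 0.55 and 0.86. Hspa5, the endoplasmic reticulum chaperone BiP, ran from 5656 to 10323 normalized reads in URI(+/D)Hep and from 9442 to 10293 in the controls. Without URI(+/D)Hep 1 and 2, where Tfrc is lowest, r lay between 0.09 and 0.75, so the likeness rests largely on those libraries.

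Ferroportin and ceruloplasmin act together in iron release, the first moving ferrous iron out of the cell and the second oxidizing it for loading onto transferrin. Slc40a1 measured 140.3, 380.1 and 388 normalized reads in the 3 controls, in the order 1 to 3, and 629, 515, 379, 532 and 354 in URI(+/D)Hep 1 to 5. Control 1 was far below all other libraries, and URI(+/D)Hep 3 and 5 lay just below the other 2 controls. The means were 303 ± 141 and 482 ± 114, and the log2 fold change was 0.77 (SE 0.34, 95% interval 0.00 to 1.55, limma adjusted p = 0.281). Without control 1 it was 0.29, and it was 0.43 with the share of Y-linked reads as a covariate and 0.17 in the 5 libraries that held both Xist and Y-linked reads.

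Markers of Kupffer cells, the liver macrophages that recycle iron from red cells and carry abundant ferroportin, did not all order the libraries alike. Clec4f, a lectin of Kupffer cells, measured 102, 238 and 245 in the controls and 384, 295, 252, 339 and 203 in URI(+/D)Hep, and was lowest in control 1 and highest in URI(+/D)Hep 1, as was Slc40a1. Marco, a scavenger receptor of macrophages, ran the other way, with 3326 in control 1 against 1276 to 2633 in the rest, and C1qa, a complement chain, had a negative fold change (-0.25). Of the 10 Kupffer cell and macrophage markers, 8 had a positive fold change (median 0.33). Vsig4, Cd5l, Timd4, Adgre1 and Csf1r were also lowest in control 1, at 138, 1200, 78.0, 76.8 and 150. The sums over the 10 markers were 6377, 7638 and 6026 in the controls and ranged from 6240 to 7648 in URI(+/D)Hep. Control 3 and not control 1 had the lowest sum, but Marco alone made up 3326 of the 6377 in control 1. None of the 10 markers was at 0 throughout. Their part in the Slc40a1 values was not tested.

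Cp measured 13457, 11037 and 5609 normalized reads in the 3 controls, in the order 1 to 3, and 6507, 6539, 5839, 6510 and 5166 in URI(+/D)Hep 1 to 5. Controls 1 and 2 stood high, and control 3 lay inside the narrow range of the URI(+/D)Hep livers. The means were 10034 ± 4019 and 6112 ± 606, and the log2 fold change was -0.63 (SE 0.25, 95% interval -1.202 to -0.055, limma adjusted p = 0.246). Without control 3 it was -1.0015 (limma adjusted p = 0.0539), and without control 1 it was -0.37. Controls 1 and 2 are the libraries with Xist under 10 and the highest Y-linked sums. With the share of Y-linked reads as a covariate the value was -0.43, and in the 5 libraries that held both kinds of transcript it was 0.09, of opposite sign. Ceruloplasmin is also an acute phase protein, and the acute phase sums were likewise highest in controls 1 and 2, at 187301 and 138139. The part of either in the Cp values was not tested.

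**Figure D3:**
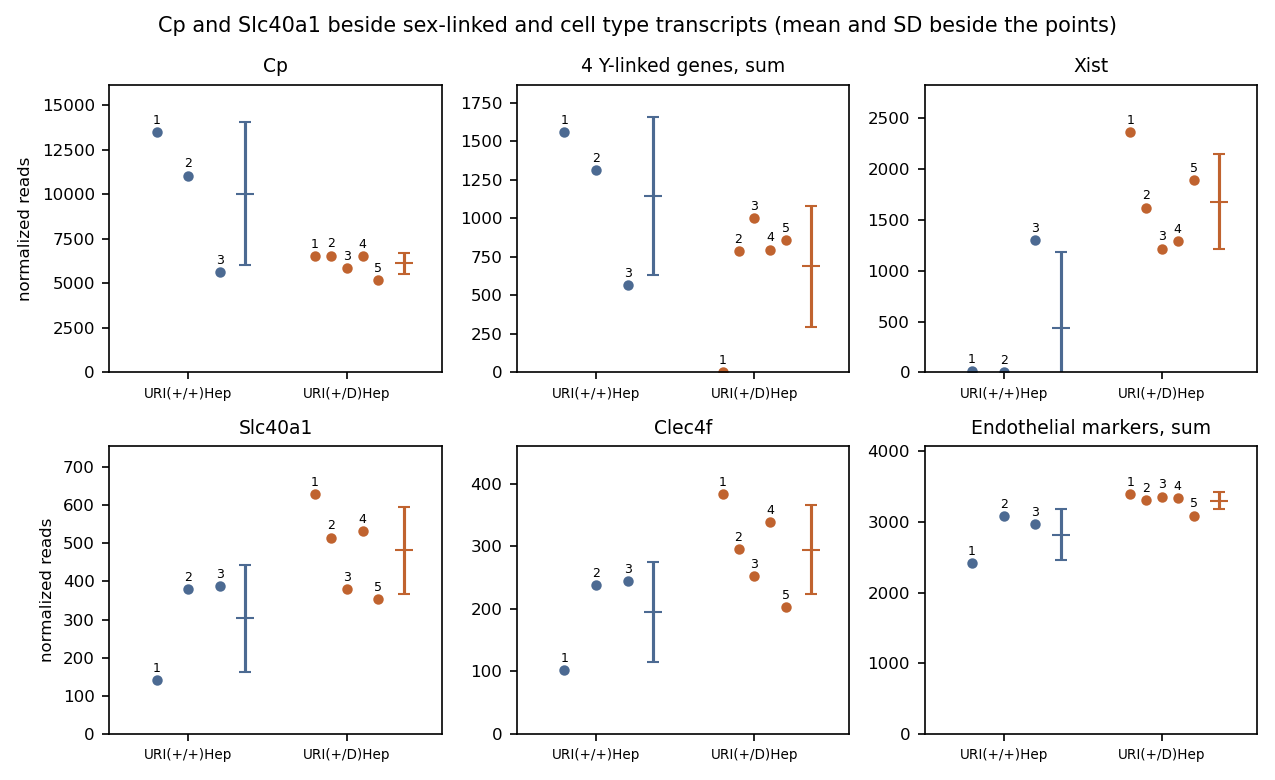
Normalized reads (vertical axes, from 0) in the 8 libraries for Cp, the sum of 4 Y-linked genes, Xist, Slc40a1, the Kupffer cell gene Clec4f and the sum of 11 sinusoidal endothelial markers, with mean and SD beside the points. Controls 1 and 2 are the high points for Cp and for the Y-linked sum, and control 1 is the low point for Slc40a1 and Clec4f.

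The ferritin genes encode the heavy chain, which oxidizes iron, and the light chain, which helps to form the mineral core. Fth1 measured 4166, 2238 and 1823 normalized reads in the controls and 2219, 2401, 2149.6, 2048 and 2461 in URI(+/D)Hep. Apart from control 1, all libraries lay between 1823 and 2461. The means were 2742 ± 1251 and 2255 ± 172, and the log2 fold change was -0.19 (SE 0.23, 95% interval -0.72 to 0.33, limma adjusted p = 0.706), which turned to 0.16 without control 1. The row Fth1-ps, a ferritin heavy chain pseudogene, held 22.1 to 28.5% as many normalized reads as Fth1 in each library and had the same high value in control 1, at 1047 against 411 to 667 in the rest.

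The row for Ftl1 held only 10 to 35 reads per library. It measured 31.2, 11.8 and 21.5 normalized reads in the controls and 30.9, 18.5, 9.67, 28.1 and 17.8 in URI(+/D)Hep, with overlapping groups. The log2 fold change was -0.03 (SE 0.43, 95% interval -0.99 to 0.93, limma adjusted p = 0.974), and the sign turned without control 1 (0.27), control 3 (0.015) or URI(+/D)Hep 3 (0.20). The row Ftl1-ps1, a close copy of the light chain gene, held 401, 205 and 275 in the controls and 353, 275, 149.8, 266 and 236 in URI(+/D)Hep, which is 9.47 to 17.3 times the Ftl1 value in each library. In the GENCODE transcripts, 215 of the 351 stretches of 50 bases (61.3%) in the last 400 bases of Ftl1 also occur in Ftl1-ps1, so the level of Ftl1 is uncertain. Ftl1-ps1 had a log2 fold change of -0.19 (limma adjusted p = 0.761).

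**Figure D4:**
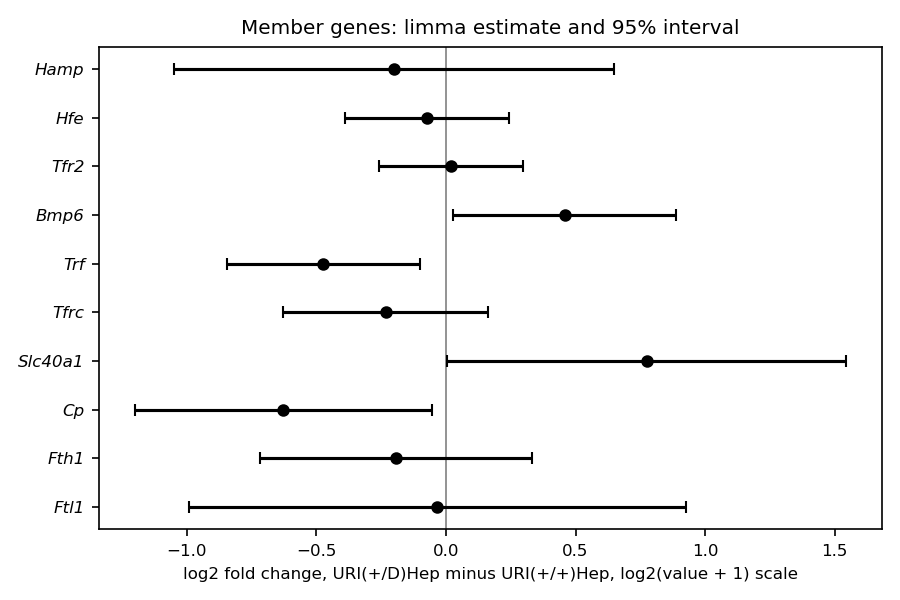
Points give the limma log2 fold change of each of the 10 genes, URI(+/D)Hep minus control, on the log2(value + 1) scale, and bars its 95% interval. The intervals of Bmp6, Trf, Slc40a1 and Cp lie to one side of 0 before adjustment over all genes, and those of Hamp and Ftl1 are the widest at about 0.85 and 0.96 on either side.

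The plot of fold changes shows the width of each unadjusted interval, from about 0.3 on either side for Tfr2 and Hfe to nearly a full log2 unit for Ftl1.

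Beyond the 10 genes, 100 other genes of iron and haem handling were listed by role, of which 96 were in the table and 95 were tested. None passed limma's adjusted threshold. Before adjustment, limma's p was under 0.05 for 7 genes higher and 19 lower in URI(+/D)Hep, where 8.35% and 9.33% of all genes tested were counted. The groups did not overlap for 5 higher and 15 lower genes, beside 6.13% and 7.3% of all genes. Of the 95, 35 had a positive and 60 a negative fold change, with a median of -0.11, beside 6829 and 6875 of all 13704 genes tested. DESeq2 called 0 higher and 3 lower of the 81 genes to which it gave an adjusted p, which were Hp, Slc11a2 and Lcn2, where it called 6.67% of all the genes it adjusted. edgeR called 0.

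In the list for uptake of iron and haem, of 15 tested, 11 had a negative fold change, with a median of -0.41. Without overlap, 3 of the 15 were lower, beside 7.3% of all genes. Hp, which encodes haptoglobin, the scavenger of free haemoglobin, measured 31808, 29146 and 25138 normalized reads in the controls and 20985, 17778, 18475, 19455 and 19571 in URI(+/D)Hep. Every URI(+/D)Hep liver lay below every control, with a log2 fold change of -0.57 (limma adjusted p = 0.115, DESeq2 adjusted p = 0.000158). With quantile normalization it was -0.31. Haptoglobin is itself an acute phase protein. The acute phase sums given above overlapped between the groups, while all 12 acute phase genes had a negative fold change (median -0.48). The part of these genes in the Hp values was not tested.

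Slc11a2, which encodes the ferrous iron importer DMT1, measured 576, 562 and 561 in the controls and 341, 306, 407, 367 and 495 in URI(+/D)Hep, again without overlap. Its log2 fold change was -0.58 (limma adjusted p = 0.127, DESeq2 adjusted p = 0.0336). Slc48a1, a haem transporter of lysosomes, measured 332 ± 85.0 and 219.7 ± 40.6 (log2 fold change -0.58, limma adjusted p = 0.191), and its log2 fold change was -0.38 without control 1. Lcn2, which binds iron-carrying siderophores and is released by neutrophils and stressed hepatocytes, and Scara5, a receptor for ferritin, were chosen for mention with their values known. Lcn2 measured 4554, 2901 and 868 in the controls and 603 to 1390 in URI(+/D)Hep, and Scara5 871, 528 and 39.7 against 16.8 to 119.7. For both, control 3 lay inside the URI(+/D)Hep range, as for Cp, and controls 1 and 2 lay above it. The limma adjusted p was 0.233 for Lcn2 and 0.316 for Scara5. The summed neutrophil markers ranged from 539.6 to 1081 in the controls and from 302 to 872 in URI(+/D)Hep, and their part in the Lcn2 values was not tested.

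**Figure D5:**
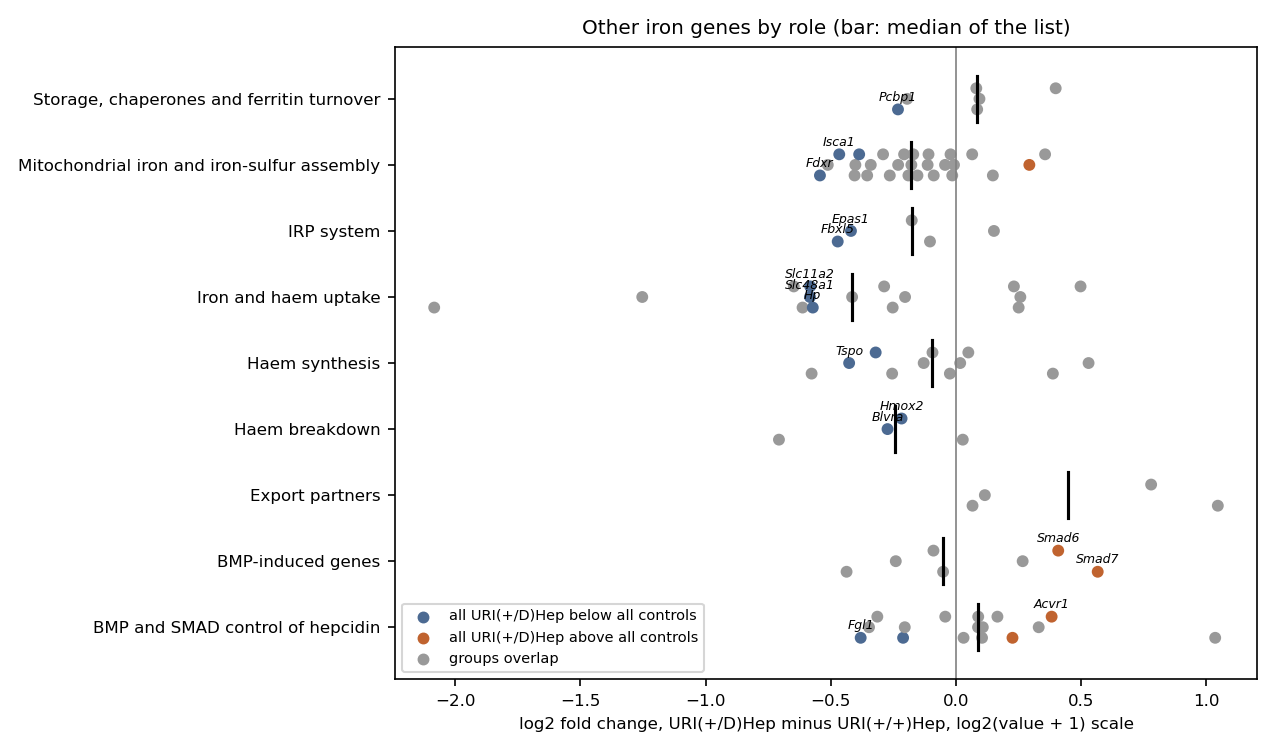
Each point is 1 of the 95 other iron genes, placed by its log2 fold change, URI(+/D)Hep minus control, and by role; some genes without overlap between the groups are labelled and black bars mark list medians. Points without overlap between the groups lie below 0 for 15 genes (blue) and above 0 for 5 (orange), and the lowest median, -0.41, is that of iron and haem uptake.

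In the iron regulatory protein system, Fbxl5, the iron-sensing ligase subunit that removes IRP2, measured 224 ± 56.6 normalized reads in controls and 159 ± 11.5 in URI(+/D)Hep without overlap (log2 fold change -0.47, limma adjusted p = 0.190), and Epas1, which encodes HIF-2α and bears an iron-responsive element, had a log2 fold change of -0.42 (limma adjusted p = 0.230) without overlap. Without control 1, Fbxl5 was -0.28 and Epas1 -0.21, and in the 5 libraries that held both Xist and Y-linked reads they were -0.11 and -0.23. Eif2ak1, the haem-regulated kinase, stood at 0.15. Of the 5 genes of that system 4 were negative (median -0.18), and 2 were lower without overlap, beside 7.3% of all genes. Pcbp1, an iron chaperone for ferritin, had a log2 fold change of -0.23 (limma adjusted p = 0.235) and no overlap, its relative Pcbp2 0.09, and Herc2, a ligase that acts on the ferritinophagy receptor, 0.40 (limma adjusted p = 0.177). Of the 6 storage genes tested, 4 were positive (median 0.08), and 1 was lower without overlap, again beside 7.3% of all genes.

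All 4 export partners tested had positive fold changes (median 0.45), and the groups overlapped for each. Flvcr2, a relative of the haem exporter Flvcr1, measured 75.2 ± 57.2 and 136 ± 46.0 normalized reads (log2 fold change 1.05, limma adjusted p = 0.285), and was 30.0 in control 1. Its value was 0.54 without control 1. Flvcr1 itself had a log2 fold change of 0.12. Heph, a ferroxidase related to ceruloplasmin, measured 16.8 to 26.8 in the controls and 24.7 to 29.0 in URI(+/D)Hep 1 to 4, but 147 in URI(+/D)Hep 5. Its log2 fold change was 0.78, or 0.29 without that library.

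In haem synthesis, 11 genes were tested, 7 of them negative (median -0.09). Alas1, the rate-limiting enzyme of liver haem synthesis, measured 930.4 ± 144 and 1217 ± 168 normalized reads (log2 fold change 0.39, limma adjusted p = 0.219). Alas2, its erythroid form, measured 113 ± 21.9 and 76.3 ± 17.6 (log2 fold change -0.58, limma adjusted p = 0.244). The summed erythroid markers ranged from 2344 to 3420 in the controls and 1559 to 2859 in URI(+/D)Hep, and their part in the Alas2 values was not tested. Tspo, a mitochondrial membrane protein tied to porphyrin handling, had a log2 fold change of -0.43 (limma adjusted p = 0.199) without overlap. Of the 11 genes, 2 were lower without overlap, beside 7.3% of all genes.

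Of 4 genes of haem breakdown, 3 were negative (median -0.24). Hmox1, the inducible haem oxygenase, measured 298 ± 77.2 and 185 ± 55.6 normalized reads with overlap (log2 fold change -0.71, limma adjusted p = 0.232). Groups did not overlap for Hmox2, the constitutive form (-0.22), or for Blvra, biliverdin reductase A (-0.27), as for 7.3% of all genes. For Blvra the margin was narrow, with 182.4 in control 3 and 181.7 in URI(+/D)Hep 3. Mitochondrial iron and iron-sulfur assembly was the longest list, with 23 of 27 genes negative and a median of -0.18. Of all 13704 genes tested, 6875 were negative. Isca1, an assembly factor for iron-sulfur clusters, had a log2 fold change of -0.47 (limma adjusted p = 0.162) and Fdxr, ferredoxin reductase, -0.54 (limma adjusted p = 0.190), both without overlap. In this list, 3 genes were lower and 1 higher without overlap, beside 7.3% and 6.13% of all genes. The higher gene was Hscb, with a log2 fold change of 0.29.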

How the data were processed

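Total liver RNA of 8 libraries was sequenced from the 3′ end of transcripts after oligo-dT priming, with a molecular identifier of 6 nt, per the labels' protocols. Per the submitters' processing notes, bcl2fastq, featureCounts, DESeq2 and GRCm39 were used. Not given in the sources used here are versions, aligner, annotation and how the identifiers were used, and a value may count reads or molecules. The authors deposited a normalized signal, in which each library's read counts are scaled by its own size factor. Dividing by the smallest value above 0 gave whole reads for 100% of values (tolerance 1e-06); in URI(+/D)Hep 5 that value was close to 1, so its recovery is less certain. Rows with fewer than 10 reads in all were not in the table.

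log2(value + 1) was tested with limma 3.58.1 (R 4.3.3) with the trend option and Benjamini-Hochberg adjustment over the 13704 genes with at least 10 normalized reads in at least 3 libraries; an adjusted p under 0.05 was called. Fold changes on this scale understate the change of low genes. The fit was run on simulated counts in which every gene had the same biological spread and no library stood apart. That setting is simpler than these data, so the run checks only the code. No column was left out.

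The 10 genes, the lists and the alternatives were chosen with earlier results of these data known. Of each list, the 3 genes of smallest p are named, and for Hamp and Tfrc the 5 genes of highest Pearson r. For 1 gene so chosen, values are not reported here. Other genes named were chosen after their values were seen. Marker sums add normalized reads over a list.

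Alternatives were other pseudocounts (0.5 and 8), other filters (none, or a mean of at least 50), other scalings (TMM or quantile), limma without trend, edgeR 4.0.16 and DESeq2 1.42.0 on recovered reads, a replicate block, the share of Y-linked reads as a covariate and leaving out each library. Added after seeing the data were the count tests without URI(+/D)Hep 5, the 6 libraries with Mki67 above 200, and the 5 libraries that hold Xist and Y-linked reads together, in which control 3 is the lone control and its spread is taken from the other group. RefSeq and GENCODE sequences are of GRCm38, not the authors' build, and were used for sequence only.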

Additional observations from a re-analysis of the deposited data

Results flagged for a closer look

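In the group of 5 livers labelled URI(+/D)Hep, 37 genes were checked for a library far from the others. Chance gives about 1 in 20 groups, and the 2 genes found are near that share. Id1 was 165 normalized reads (164.8635) in URI(+/D)Hep 4 against 269.7 to 312 in the other 4, and Hamp was also lowest of that group there. Heph was 147 (147.3625) in URI(+/D)Hep 5 against 24.7 to 29.0 in the other 4.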

How the results depend on the processing

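The count of called members was 0 in the main fit and 1 with DESeq2 (Trf), and limma gave 0 with each library left out in turn. For the other iron genes it was 0 in the main fit, 3 with DESeq2 and 3 with DESeq2 on 7 libraries (each time Hp, Slc11a2 and Lcn2), and 0 by limma with each library left out in turn. Over all genes, DESeq2 called 236 higher and 376 lower genes, and 122 and 255 on 7 libraries, against 0 and 2 by limma and 0 and 3 by edgeR. The cause was not tested. The replicate numbers did not pair the libraries, as deviations of same-numbered libraries correlated at -0.40, -0.04 and -0.27. With the replicate block, which takes URI(+/D)Hep 4 and 5 out of the group difference, Hamp was 0.016 and 0 members were called.

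Hamp had the other sign with the block, with the Y-linked covariate (0.096), in the 6 libraries with Mki67 above 200 (0.30) and in the 5 with both Xist and Y-linked reads (0.72). Leaving out each library, it ranged from -0.68 to 0.28. In the 6 libraries, Fth1 was 0.12 and Ftl1 0.31. In the 5 libraries, Fth1 was 0.31, Cp 0.094, Id1 0.12 and Flvcr2 -0.26. Without URI(+/D)Hep 5, Ftl1 was 0.036 by edgeR and 0.038 by DESeq2. Leaving out each library gave ranges of -0.042 to 0.14 for Tfr2, -0.44 to 0.16 for Fth1, -0.39 to 0.27 for Ftl1, -0.19 to 0.053 for Hfe, -0.029 to 0.25 for Pcbp2 and -0.027 to 0.26 for Flvcr1. Ftl1 and Heph have no value with a mean of at least 50. With 3 controls that differ in sex-linked and cycling transcripts, those properties and genotype cannot be told apart for Hamp, Bmp6, Cp and Slc40a1.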
